A study of Sus scrofa with 8 samples.

Results

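The Z-disc is the plate at each end of the sarcomere, the contractile unit of striated muscle, where actin filaments of opposite polarity are crosslinked by alpha-actinin. Besides anchoring the filaments it carries proteins that take part in signalling when the fibre is stretched: telethonin (TCAP), which caps the end of titin, the LIM protein CSRP3, and the ankyrin repeat protein ANKRD2, which can move between the sarcomere and the nucleus. Calsarcins bind alpha-actinin together with the phosphatase calcineurin, and desmin filaments tie neighbouring Z-discs to each other and to the cell membrane. This account covers 10 genes of this structure, chosen by name: TCAP, CSRP3, ANKRD2, MYOZ1, MYOZ2, LDB3, ACTN2, ACTN3, DES and MYOT. A spot was counted for a gene where the platform annotation gave that symbol alone. All 10 genes had spots, 30 of the 9984 on the array, among 2922 genes named in this way.

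Skeletal muscle RNA of pigs fed a high energy diet was hybridised in competition with that of pigs fed a low energy diet on 8 two-colour arrays. There were 4 couples of samples, each put on an array with the high energy sample in dye 5 and on another with the dyes exchanged (high energy in dye 3). Couple 1 set high energy sample 40 against low energy sample 49, couple 2 set 41 against 61, couple 3 set 40 again against 142, and couple 4 set a sample labelled ae against one labelled be. Breed, age, sex, the muscle taken, the length of feeding, and whether a sample is 1 animal or a pool are not stated in the labels or the design text. Since a dye swap repeats the same RNAs, its arrays were averaged and the couple was the replicate (n = 4, with sample 40 in couples 1 and 3). Nothing says that the couples came from separate animals, so p-values cover only the spread between couples, part of which may be technical. Between 77.6% and 94.4% of the spots on an array had a value, and the SD of the log2 ratios of an array was 0.341 to 0.724.

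Values are log2 ratios, and a positive value is read as higher on the high energy diet. That reading is likely and not stated: the labels put low energy in channel 1 and high energy in channel 2 of every array, and low energy is named as the reference. If the deposited ratio were instead one dye over the other, the arrays with high energy in dye 3 would have the opposite sign. The mean after that change of sign, called the turned value, is therefore given beside the fitted ratios. Across features, which are not independent replicates, Spearman's rho between the dye 5 and dye 3 arrays of a couple was 0.073, -0.024, 0.043 and -0.033 in couples 1 to 4, so the repeats of the same RNAs hardly agreed and gave no direction. The probes carry human accessions, and pig transcripts may bind them unequally. All 10 symbols also occur in the pig gene tables. Ratios hold no level, but a lower bound on spot brightness (the recovered signal, explained with the spread of the spots) could be computed from them. Its mean log2 was 13.1 for the muscle marker ACTA1, 12.6 for MYH2 and 12.2 for MYH1, the highest of the 8 muscle markers tested. CKM, TNNT3 and MYH7 had 10.4, 10.5 and 10.6, TNNT1 9.34 and MB 8.03, against a median of 8.34 over all tested features. Fewer cells of a type cannot be told apart from less RNA per cell.

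No Z-disc gene differed between the diets by more than the spread between couples allows to call. In limma's test across all 5025 features measured in at least 3 couples, 0 of the 10 genes passed a Benjamini-Hochberg threshold of 0.05, beside 0% of all features. At an unadjusted p under 0.05 there were 0 of 10, beside 3.78% of features (190), and for turned values 0 of 10, beside 2.65%. The smallest unadjusted p of the 10 in limma was 0.126, for ANKRD2. Another limma fit covered the 8 arrays with the couple as a random replicate block. In that limma fit TCAP and ANKRD2 (2 of 10) had an unadjusted p of 0.0385 and 0.0419, beside 353 of 5025 features under 0.05. Both genes had an adjusted p of 0.702. Of the fitted ratios 6 lay above 0 and 4 below, with a median of 0.0068, against -0.012 over all tested features. They ran from -0.32 for TCAP to 0.15 for ANKRD2, and turned values from -0.11 for ACTN3 to 0.083 for TCAP. TCAP was the 1 gene of the 10 with a ratio over 0.2 in size, which 19.9% of all features had; of the turned values 0 of 10 were over it, beside 19.4% of features. No Z-disc gene of the 9 measured on all 8 arrays had 1 sign on every array, beside 0.797% of features above 0 and 1.46% below. ANKRD2 and MYOZ1 were above 0 in all 4 couples, beside 7.47% of features, and no Z-disc gene was below 0 in all 4, beside 9.12%. Turned, 0 of the 9 genes had 1 sign in all 4 couples, beside 6.65% of features above 0 and 8.08% below.

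**Figure D1:**
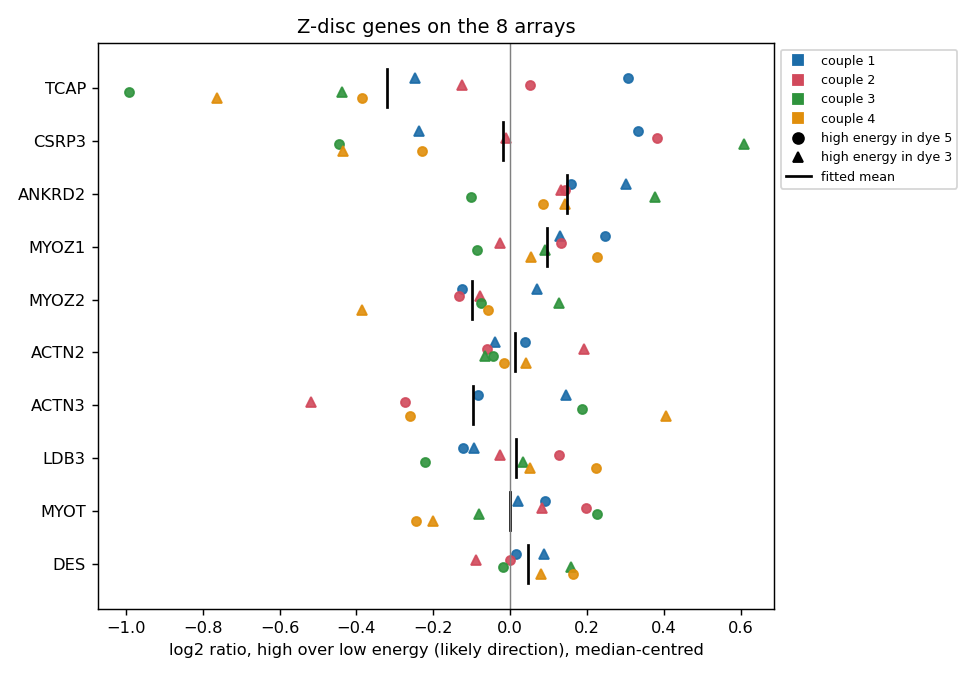
Log2 ratio of each Z-disc gene (rows) on each array, averaged over the spots of the gene; colours mark the couple, circles high energy in dye 5, triangles high energy in dye 3, and black bars the fitted mean over couples. TCAP has the lowest point, at -0.99 in couple 3, while ACTN2 and DES stay within 0.20 of 0 on all arrays.

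Among the stretch sensors, TCAP had the largest fitted ratio in size and the widest spread. With high energy in dye 5, its log2 ratio was 0.31, 0.051, -0.99 and -0.38 in couples 1 to 4. With high energy in dye 3 it was -0.25, -0.13, -0.44 and -0.76. Couples 3 and 4 were thus low on both of their arrays, while couples 1 and 2 had one array on each side of 0. Averaged over the dye orientations, the couples had 0.030, -0.038, -0.71 and -0.57, an SD of 0.38. In the fit its ratio was -0.32 ± 0.21 (limma's SE; turned 0.083), a fold of 0.801 with a 95% confidence interval of 0.556 to 1.15, and the unadjusted p in limma was 0.183 (adjusted p = 0.996). Without couple 3 the ratio was -0.19 and without couple 4 it was -0.21, so both couples carry it.

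The neighbouring TCAP spots 9 and 10 agreed on the pattern between couples. Spot 9 had couple means of 0.018, -0.11, -0.71 and -0.67, and spot 10 had 0.043, 0.036, -0.72 and -0.47. All 8 spot values of couples 3 and 4 were below 0, between -1.10 and -0.32. Couples 1 and 3 carry the same high energy sample, with different low energy samples, and their TCAP ratios were 0.030 and -0.71. Among the features tested, 3.29% had a ratio as low as that of TCAP in couple 3, and 4.61% in couple 4.

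CSRP3, the muscle LIM protein, had no common direction. Its ratio was 0.33, 0.38, -0.45 and -0.23 in couples 1 to 4 with high energy in dye 5, and -0.24, -0.0097, 0.61 and -0.44 with high energy in dye 3. In couples 1, 2 and 3 the arrays of a couple lay on opposite sides of 0, and in couple 4 both were below it. Its fitted ratio was -0.018 ± 0.12 (turned 0.041), with an interval of -0.32 to 0.28 on the log2 scale. Its neighbouring spots 219 and 220 differed by a median of 0.51 on the same array, the largest such gap among the 15 neighbouring pairs of the 10 genes, and by up to 1.45. Without couple 4 the fitted ratio was 0.12. The low values of couple 4 came from spot 219, with -0.49 (high energy in dye 5) and -0.44 (dye 3). Spot 220 had 0.027 with high energy in dye 5 and no value with high energy in dye 3.

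ANKRD2, which binds titin's N2A region, had the most even ratios between couples of the stretch sensors. With high energy in dye 5 it had 0.16, 0.14, -0.10 and 0.085, and with high energy in dye 3 it had 0.30, 0.13, 0.38 and 0.14. It was above 0 on 7 of 8 arrays, and the couple means of 0.23, 0.14, 0.14 and 0.11 had an SD of 0.051. Fitted, the ratio was 0.15 ± 0.083 (turned -0.069), a fold of 1.11 with an interval of 0.961 to 1.28, and the adjusted p in limma was 0.996. The evenness is that of the average of both spots and not of either spot. Spot 281 had couple means of 0.10, 0.32, 0.39 and 0.27, while spot 282 had 0.36, -0.045, -0.11 and -0.040. Tested alone, they had ratios of 0.27 ± 0.11 (turned -0.18) and 0.024 ± 0.15 (turned 0.045) in limma, with unadjusted p of 0.0520 and 0.877. They thus differed most in which couples were high, although both name the same transcript.

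**Figure D2:**
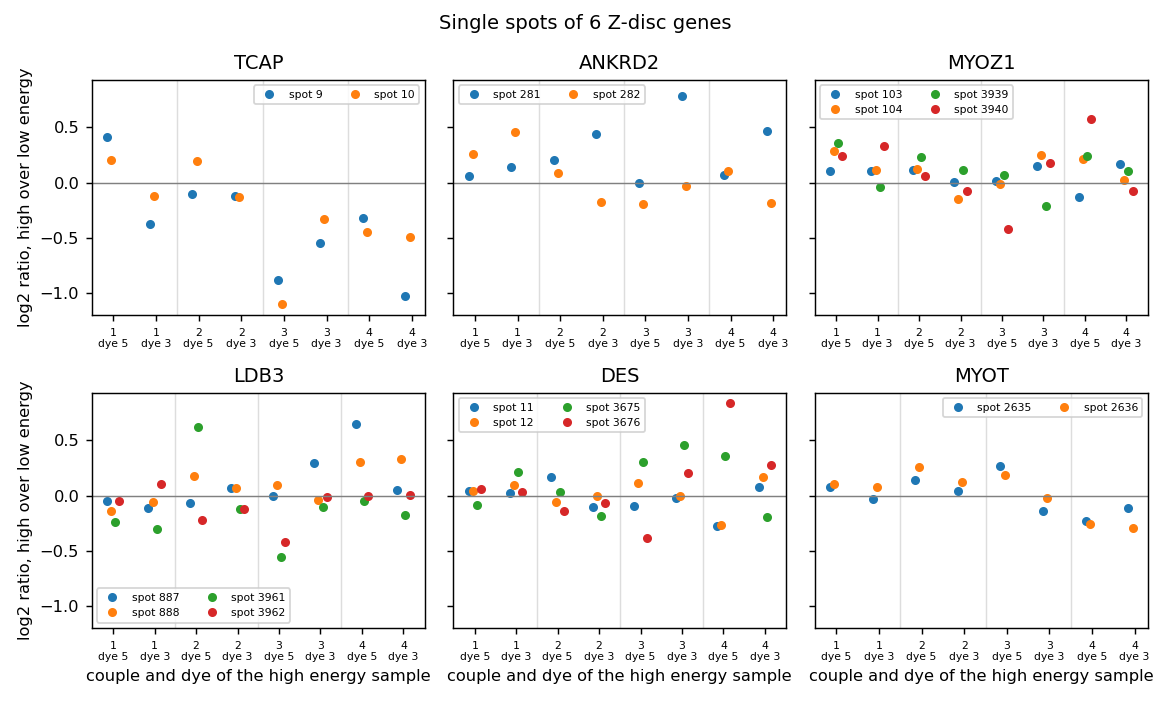
Log2 ratio of every single spot of 6 Z-disc genes (colours within a panel) on the 8 arrays, ordered by couple and by the dye of the high energy sample. Both TCAP spots are below 0 on all arrays of couples 3 and 4, the ANKRD2 spots part from each other, and both MYOT spots are below 0 on the arrays of couple 4.

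Calsarcins hold calcineurin at the Z-disc, MYOZ1 in fast fibres and MYOZ2 in slow fibres and heart. MYOZ1 was above 0 on 6 of 8 arrays. It had 0.25, 0.13, -0.087 and 0.23 with high energy in dye 5, and 0.13, -0.027, 0.090 and 0.055 with high energy in dye 3. The couple means were 0.19, 0.052, 0.0015 and 0.14, and the fitted ratio was 0.096 ± 0.091 (turned 0.044; fold 1.07, interval 0.912 to 1.25). Its spots lie at separate positions on the array, and both positions had ratios above 0. The bright pair 103 and 104 had 0.079 ± 0.082 (turned 0.0089), with couple means of 0.15, 0.024, 0.10 and 0.070. The dimmer pair 3939 and 3940 had 0.11 ± 0.11 (turned 0.078), with 0.22, 0.081, -0.097 and 0.21. The sign held at both positions in couples 1, 2 and 4 and differed in couple 3.

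MYOZ2 was below 0 on 6 of 8 arrays. It had -0.12, -0.13, -0.075 and -0.056 with high energy in dye 5, and 0.071, -0.078, 0.13 and -0.39 with high energy in dye 3. The fitted ratio was -0.098 ± 0.089 (turned 0.0016; fold 0.934, interval 0.801 to 1.09). The arrays below 0 in both orientations were those of couples 2 and 4. Spot 3402 had -0.21 ± 0.12 (turned -0.14), while spot 3401 had 0.0058 ± 0.12 in couples 1, 2 and 4 (turned 0.17). The spots parted in couple 2, at -0.39 for spot 3402 and 0.18 for spot 3401. In couples 1 and 4 both were below 0, at -0.015 and -0.32 for spot 3402 and -0.039 and -0.12 for spot 3401.

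The alpha-actinins crosslink actin, ACTN2 in all muscle fibres and ACTN3 in fast fibres alone. ACTN2 stayed close to 0. It had 0.038, -0.060, -0.045 and -0.015 with high energy in dye 5, and -0.040, 0.19, -0.064 and 0.040 with high energy in dye 3. The array of couple 2 with high energy in dye 3 stood above the rest. The fitted ratio was 0.013 ± 0.082 (turned -0.037), a fold of 1.01 with an interval of 0.876 to 1.16. ACTN2 is represented at 3 positions, which differed far more in spread than in mean. At the bright pair 173 and 174 the couple means were -0.020, 0.016, -0.0094 and -0.011, an SD of 0.016, the smallest among the positions of the 10 genes. The other positions were dim and each lacked a couple: spots 589 and 590 had 0.22, -0.062 and -0.22 in couples 1 to 3, and spots 3821 and 3822 had -0.20, 0.25 and -0.060 in couples 1, 2 and 4. Their fitted ratios were -0.026 ± 0.17 (turned -0.058) and -0.0058 ± 0.13 (turned -0.11), against -0.0043 ± 0.080 (turned -0.027) for the bright pair.

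ACTN3 was measured on 7 arrays and entered the fit with 3 couples, since couple 3 lacked a value with high energy in dye 3. With high energy in dye 5 it had -0.083, -0.27, 0.19 and -0.26 in couples 1 to 4, and with high energy in dye 3 it had 0.14, -0.52 and 0.41 in couples 1, 2 and 4. Couple 2 was below 0 on both arrays, and in couples 1 and 4 the arrays had opposite signs. The fitted ratio was -0.097 ± 0.14 (turned -0.11; fold 0.935, interval 0.728 to 1.20), and without couple 2 it was 0.052.

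LDB3, a PDZ and LIM domain protein that binds alpha-actinin, had different ratios at its array positions. Over all 4 spots it had -0.12, 0.13, -0.22 and 0.22 with high energy in dye 5, and -0.094, -0.027, 0.035 and 0.051 with high energy in dye 3, and the fitted ratio was 0.016 ± 0.090 (turned 0.020; fold 1.01, interval 0.865 to 1.18). Spots 887 and 888 had couple means of -0.092, 0.060, 0.088 and 0.33, with a fitted 0.12 ± 0.11 (turned 0.032). Spots 3961 and 3962 had -0.12, 0.039, -0.27 and -0.059, with a fitted -0.086 ± 0.097 (turned 0.0091). The positions agreed in sign in couples 1 and 2 and differed in couples 3 and 4, by more than the median gap of 0.17 and 0.16 between neighbours within each position. The annotation gives both positions the same transcript accession.

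MYOT, myotilin, another actin-binding partner of alpha-actinin, was low in 1 couple. With high energy in dye 5 it had 0.091, 0.20, 0.23 and -0.25 in couples 1 to 4, and with high energy in dye 3 it had 0.021, 0.083, -0.080 and -0.20. Couple 4 was below 0 on both arrays and at both spots, between -0.29 and -0.11, while the means of couples 1, 2 and 3 were 0.056, 0.14 and 0.073. Its neighbouring spots had a median gap of 0.098 on the same array. Over the 4 couples the fit gave 0.00084 ± 0.10 (turned 0.048), a fold of 1.00 with an interval of 0.839 to 1.19. Without couple 4 it was 0.097.

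DES, desmin, the intermediate filament protein of muscle that is also made in smooth muscle, had ratios near 0. It had 0.014, -0.00024, -0.017 and 0.16 with high energy in dye 5, and 0.088, -0.089, 0.16 and 0.081 with high energy in dye 3. The fitted ratio was 0.047 ± 0.084 (turned 0.00070), a fold of 1.03 with an interval of 0.894 to 1.19. The bright pair of spots 11 and 12 had couple means of 0.048, 0.0021, -0.0036 and -0.074. The dim pair 3675 and 3676 had 0.055, -0.092, 0.14 and 0.32. In couples 2, 3 and 4 the positions lay on opposite sides of 0, and the fitted ratios were -0.013 ± 0.082 (turned -0.041) and 0.11 ± 0.11 (turned 0.043).

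**Figure D3:**
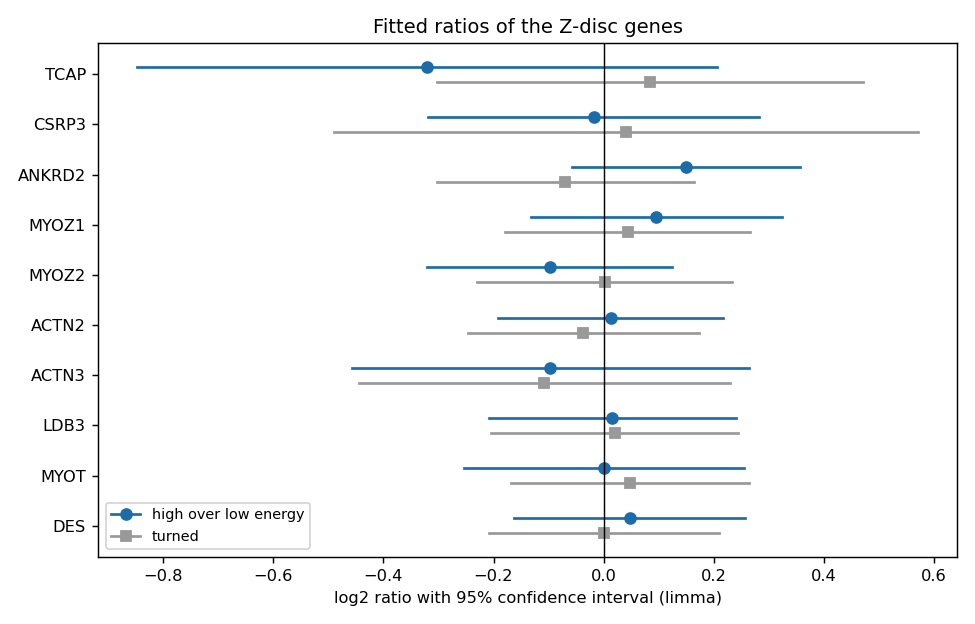
Fitted log2 ratio of each Z-disc gene with limma's 95% confidence interval over the couples, as high over low energy (blue circles) and as the turned value (grey squares). All 20 intervals include 0, and those of TCAP and ACTN3 are the widest of the high over low energy ratios.

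Couple 4 held the lowest couple mean of CSRP3 at -0.33, MYOZ2 at -0.22, MYOT at -0.22 and ANKRD2 at 0.11, and the highest of DES at 0.12, LDB3 at 0.14 and ACTN3 at 0.073. The median of the 10 genes was 0.043 in that couple, and 0.039, 0.051 and 0.026 in couples 1 to 3, so the genes did not shift together. Grouped by the fibre type in which they are best known, both fast fibre genes were on different sides of 0 (MYOZ1 0.096, ACTN3 -0.097), and so were the slow fibre genes (ANKRD2 0.15, CSRP3 -0.018, MYOZ2 -0.098). The 5 genes common to fibre types had a median of 0.013. The slow fibre genes with a sensor role, CSRP3 and ANKRD2, had different orders of couples, with the highest mean in couple 2 for CSRP3 and in couple 1 for ANKRD2.

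How far the ratios of a spot scattered over the arrays followed its recovered signal. For most deposited values a fraction of small integers has exactly that logarithm (within 1e-09). The larger integer of the reduced fraction, the recovered signal, bounds from below how bright the spot was in scanner units. Between 84.9% and 96.7% of the values of an array gave a number under 5000, against 0.785% of random values, and a number at or above 5000 may be arbitrary and is read only as bright. Over the 30 Z-disc spots, Spearman's rho between the mean log2 recovered signal and the SD over arrays was -0.93, a description, since spots share arrays and genes. Both quantities also come from the same ratios. A ratio near 0 but not at 0 needs a fraction of large integers, so part of this relation may be built in, which was not tested. The mean signals include numbers at or above 5000, so the order among the brightest spots is uncertain. The SD ran from 0.097 for ACTN2 spot 173 and 0.10 for MYOZ1 spot 103 to 0.58 for ACTN2 spot 589 and 0.59 for CSRP3 spot 220. Over the spots of the whole array measured on all 8 arrays, the median SD was 0.433 at a log2 recovered signal of 8 to 9 and 0.167 at 13 and above.

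**Figure D4:**
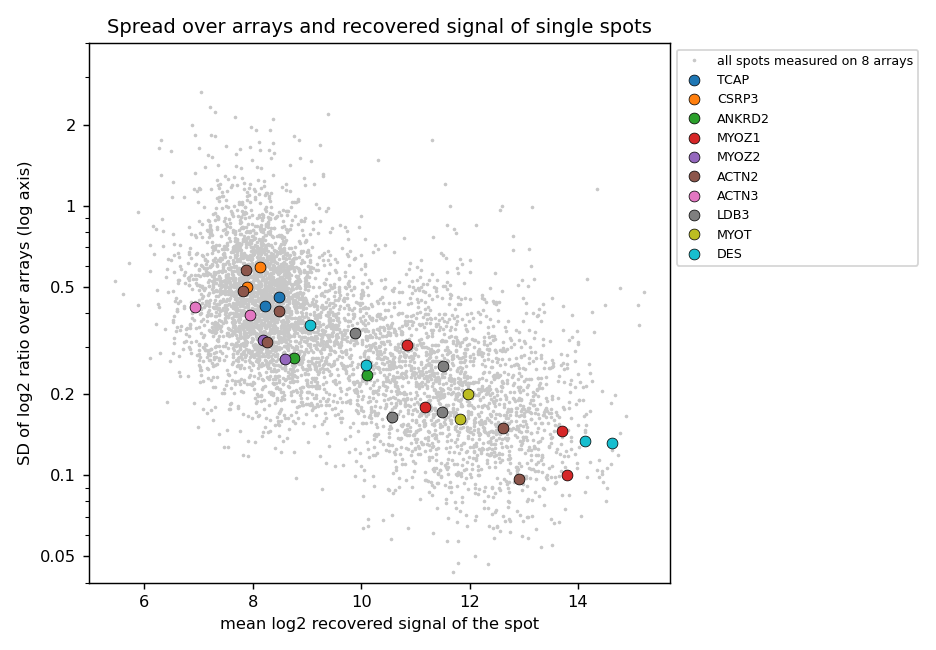
SD of a spot's log2 ratio over the arrays (log axis) against its mean log2 recovered signal, for all spots measured on 8 arrays (grey) and the 30 Z-disc spots (coloured by gene). The bright spots of DES, MYOZ1 and ACTN2 lie at the lower right, with SDs from 0.097 to 0.15, and those of CSRP3, TCAP and ACTN3 at the upper left, with SDs from 0.39 to 0.59.

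Compared with all features tested, the 10 genes had a median SE of 0.091, against 0.126, and a median size of the ratio of 0.072, against 0.090. Over the 2556 named genes tested these medians were 0.118 and 0.078. The median log2 recovered signal of the 10 genes was 9.65, against 8.34 over all features, and they average over 2 to 6 spots each. Neighbouring spots of the 10 genes differed on the same array by a median of 0.22, against 0.31 for the 3290 other named pairs. An added fit, in which the prior variance follows the recovered signal, was chosen after the data had been seen and gave narrower intervals for bright genes. By it the fold lay between 0.942 and 1.13 for DES, 0.964 and 1.19 for MYOZ1, 0.882 and 1.13 for MYOT, and 0.899 and 1.14 for LDB3. For TCAP it was 0.571 to 1.12. The dim genes CSRP3, MYOZ2 and ACTN3 had wider intervals than before, at 0.776 to 1.26, 0.761 to 1.15 and 0.696 to 1.26. The adjusted p of all 10 genes in the added limma fit was 0.997 or above.

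Of 32 other Z-disc proteins listed, 18 were tested and none passed (0% of all features passed); 9 were above 0 and 9 below, with a median of -0.016 (turned 0.0015). CRYAB, a small heat shock protein that protects desmin and actin, had couple means of 0.39, 0.32, -0.16 and 0.29 and a fitted 0.23 ± 0.16 (turned -0.030; 0.15 without couple 1). NEB, nebulin, which runs along the thin filament, had 0.24, -0.24, -0.55 and -0.26 and a fitted -0.21 ± 0.20 (turned 0.11; -0.35 without couple 1 and -0.088 without couple 3). TTN, titin, whose end is capped by telethonin in the Z-disc, had -0.21, 0.065, -0.31 and -0.10 and a fitted -0.12 ± 0.10 (turned 0.026; -0.19 without couple 2). In couples 3 and 4 TCAP, TTN and NEB were all below 0, whereas in couples 1 and 2 the signs of the 3 genes differed. These 3 genes were set together after their values were seen. The share of all features below 0 in both couples was not counted, and the common sign was not tested. Other Z-disc genes were above 0 in couples 3 and 4, such as ANKRD2 (0.14 and 0.11) and DES (0.070 and 0.12).

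Of 30 genes of stretch and calcineurin signalling, 15 were tested and none passed; 5 were above 0 and 10 below, with a median of -0.018 (turned -0.0059). TRIM55, a titin-binding ubiquitin ligase, had 0.24, 0.54, 0.68 and 0.045 and a fitted 0.36 ± 0.16, with a turned value of the same size, 0.38, so its arrays with high energy in dye 3 were close to 0 on average. MEF2C and MEF2D, transcription factors downstream of calcineurin, had -0.17 ± 0.10 in 3 couples (turned -0.044) and 0.19 ± 0.16 (turned -0.097; 0.29 without couple 1 and 0.094 without couple 3). Their signs were opposite. The relatives of ANKRD2 were near 0: ANKRD1 had 0.065 ± 0.11 (turned 0.16) and ANKRD23 had -0.0043 ± 0.10 (turned -0.046). Of 23 genes of intermediate filaments and the costamere, the link from Z-disc to membrane, 10 were tested and none passed; 6 were above 0, with a median of 0.033 (turned -0.014). NES, nestin, a filament protein of young muscle, had -0.097, -0.19, -0.50 and -1.13 and a fitted -0.51 ± 0.21 (turned -0.35; -0.25 without couple 4). DMD, dystrophin, had 0.12 ± 0.098 (turned -0.014; 0.075 without couple 3) and LMNA, lamin A/C, had 0.11 ± 0.14 (turned -0.020; 0.17 without couple 1 and 0.022 without couple 3). The desmin partners SYNM, VIM and PLEC had 0.048 ± 0.079 (turned 0.19), 0.020 ± 0.091 (turned -0.0028) and 0.051 ± 0.12 (turned -0.013). ANKRD1, ANKRD23, SYNM, VIM and PLEC were singled out after their values were seen.

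Among 1927 other named genes measured on all 8 arrays, the profile nearest to TCAP, by the mean absolute difference of the log2 ratio over the arrays, was that of EPN1 at 0.16, followed by ATP5PB and UQCRQ at 0.22 each, against a median of 0.46. EPN1 had -0.95 on the array of couple 3 with high energy in dye 5 and -0.61 on that of couple 4 with high energy in dye 3. TCAP was lowest on the same 2 arrays. The log2 ratios of these arrays had the largest SDs of the 8 arrays, at 0.724 and 0.700. The part of this spread in the likeness was not tested. For ANKRD2 the nearest were TCF25, UBAC1 and PCBP2 at 0.10 each, against a median of 0.28, and for CSRP3 they were EIF1AX at 0.17, KPNA3 at 0.18 and ATOH8 at 0.18, against 0.39. These distances describe 4 couples and were not tested.

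Markers of other cells were measured in part. Of the smooth muscle and vessel markers, which matter for DES, 4 of 8 were tested, 3 above 0, with a median of 0.11, and the median turned was of opposite sign, at -0.18. The 3 fibroblast markers tested, of 6, had a median of 0.0013 (turned -0.14), the 2 adipocyte markers, of 5, -0.072 (turned 0.16), and the 3 blood markers, of 4, -0.025 (turned 0.094). The 1 immune marker tested (of 5, C1QA) had -0.34 ± 0.16 (turned -0.096; -0.17 without couple 2). The 1 nerve marker tested (of 3, S100B) had 0.37 ± 0.17 in 3 couples (turned -0.15; 0.17 without couple 4). The 3 cardiac markers tested, of 4, had a median of -0.020 (turned -0.0025). Of 9 skeletal muscle markers 8 were tested, 6 of them below 0 with a median of -0.12 over the list (turned 0.038), and none passed. At an unadjusted p under 0.05 in limma there were 2 of these 8, beside 3.78% of all features. MB, myoglobin, had -0.32 ± 0.10 (turned 0.22) with an unadjusted p of 0.0247 in limma. TNNT1, slow troponin T, had -0.21 ± 0.080 (turned -0.047) with an unadjusted p of 0.0422 in limma. TNNT1 was below 0 on all 8 arrays, beside 1.46% of the features measured on all 8. The 2 markers above 0 were CKM, at 0.083 ± 0.080 (turned 0.016), and TNNT3, at 0.088 ± 0.10 (turned -0.0035). CKM was above 0 on all 8 arrays, beside 0.797% of the features measured on all 8. The adjusted p of MB and TNNT1 in limma was 0.996. MB, TNNT1, CKM and TNNT3 were singled out after their values were seen. The part of these cells in the ratios of the Z-disc genes was not tested.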

How the data were processed

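For each array the authors deposited a log2 ratio per spot, with medians near 0; the unit was read from the values. Per the series' design text, cDNA was labelled with Cy3 and Cy5 and scanned on a ScanArray LITE; how the values were background-corrected, filtered and normalized is not stated there or in the labels. Arrays were centred on their medians, spots with the same single symbol averaged (6296 features, 6610 of 9984 spots with 1 symbol, 106 with several, 3268 with none), and both arrays of a couple averaged. Features with both dye orientations in at least 3 couples were tested against 0 with limma 3.58.1 in R 4.3.3 (lmFit, eBayes, two-sided, Benjamini-Hochberg over 5025 features). The high energy sample was a block with a fixed correlation of 0.5, so fitted ratios weight couples 2 and 4 above couples 1 and 3. The fit was tested on simulated data. The Z-disc genes, the lists and the rule for naming genes (all 10 members, the 3 smallest p of each pathway list, the 3 nearest profiles of each stretch sensor) were chosen with earlier results of these data known. The number of arrays limits the precision. No sequences or coordinates were used here.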

Additional observations from a re-analysis of the deposited data

Results flagged for a closer look

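Of 19 sets of values checked (the arrays and the couples of each Z-disc gene, where at least 4 were measured), 1 held a value far from the others. ACTN2 had 0.19 on the array of couple 2 with high energy in dye 3, while its other 7 arrays lay between -0.064 and 0.040. Chance flags about 1 in 20 such sets. At the bright ACTN2 spots 173 and 174 the same array had 0.043. At the dim spots 589 and 590 it had 0.10, and at the dim spots 3821 and 3822 it had 0.44.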

How the results depend on the processing

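Under 20 alternative settings, 18 planned and 2 added after the data had been seen, no Z-disc gene passed the adjusted threshold, and the smallest adjusted p of any of them in limma was 0.702, for TCAP and ANKRD2 with the couple as a replicate block over 8 arrays. MYOZ1 kept its sign in all 20 settings (0.044 to 0.14). Reading the ratios turned gave the opposite sign for TCAP (0.083), CSRP3 (0.041), ANKRD2 (-0.069), MYOZ2 (0.0016) and ACTN2 (-0.037). With high energy in dye 5 alone CSRP3 had 0.023 and ACTN2 -0.024, and in dye 3 alone LDB3 had -0.0047, ACTN3 0.011 and MYOT -0.047. LDB3 had -0.0038 with independent couples and with the couple as a replicate block over 8 arrays, -0.013 with the median of spots, -0.0080 for values with a log2 recovered signal of 9 or more and -0.0071 with array weights. CSRP3 had 0.037 with quantile normalization, 0.037 with array weights and 0.072 at its brightest spot. At the spot with the highest mean recovered signal MYOZ2 had 0.0058 and ACTN2 -0.041. At the position with the highest one ACTN2 had -0.0043 and DES -0.013. Leaving out 1 couple in turn gave -0.010 to 0.026 for ACTN2, -0.18 to 0.052 for ACTN3, -0.11 to 0.12 for CSRP3, -0.036 to 0.031 for LDB3 and -0.059 to 0.097 for MYOT. TCAP then ranged from -0.44 to -0.19, ANKRD2 from 0.13 to 0.16, MYOZ2 from -0.12 to -0.045 (without couple 4) and DES from 0.016 (without couple 4) to 0.087 (without couple 2). MYOZ2, CSRP3, TCAP and ACTN3 gave no value with that signal minimum, nor did ACTN3 among features on all 8 arrays. The causes were not tested.

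The count of features at an unadjusted p under 0.05, 190 as reported, was 108 with high energy in dye 5 alone, 310 with independent couples, 353 with the couple as a replicate block over 8 arrays, 106 of 1472 for values with a log2 recovered signal of 9 or more, and 108 to 305 without 1 couple; 0 passed after adjustment in any setting. An unadjusted p under 0.05 in limma was reached by TCAP and ANKRD2 with the couple as a replicate block over 8 arrays (0.0385 and 0.0419), by TCAP with high energy in dye 3 alone (0.0469) and without couple 1 (0.0494), and by no Z-disc gene in the other settings. With the replicate block, dye swaps of the same RNAs counted nearly as separate replicates. Each ratio already pairs the diets of a couple within an array. The intervals of TCAP, CSRP3 and ACTN3 were the widest of the 10 genes, and a true difference anywhere within them is compatible with the data. Their mean log2 recovered signals, with that of MYOZ2, were the lowest of the 10, at 7.63 to 8.36; the part of brightness in the intervals was not tested.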
